A study of Rattus norvegicus with 35 samples.

Results

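S100b, Pmp22, Mbp and Cnp, 4 genes tied to Schwann cells and myelin, were followed through normal rat mammary glands and rat mammary tumours. They were chosen by symbol in the platform annotation, and every probe set carrying 1 of these symbols was kept, which gave 4 of the 10411 named genes and 7 of the 15866 probe sets measured. The probe sets were picked by symbol alone, but the 4 genes were chosen with earlier results of these data known. The series holds 35 RAE230A oligonucleotide arrays of total RNA, 11 of normal mammary glands and 24 of mammary tumours that had been frozen and had been induced with N-methyl-N-nitrosurea (NMU), an alkylating carcinogen. The labels give no strain, age, dose or time. For the normal glands they state neither the storage nor any exposure to NMU. The normal glands carry the titles NewN1 to NewN8, X27.1N, X28.1N and Young, and each tumour has a title starting with X. Separate animals are not named in any label, so p-values here speak only of variation among these samples, which may be partly technical.

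Schwann cells are the glia of peripheral nerve, and the nerve fibres that run through a mammary gland carry them along. Those that myelinate wrap an axon in compacted membrane, which PMP22 and MBP help hold together, while CNP sits in the uncompacted, cytoplasm-filled parts of the sheath. S100B, a calcium-binding protein, is a standard histological marker of Schwann cells and is also made by adipocytes, which fill much of a normal mammary gland. Outside myelin, PMP22 is known as a growth arrest-specific gene of fibroblasts, and CNP and non-myelin transcripts of the Mbp locus are found in other cells. These are whole-tissue samples, so fewer cells of a type and less RNA per cell cannot be told apart.

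The sequences before the start sites of S100b, Pmp22 and Cnp are shown because these genes took 3 different courses in the tumours. S100b fell the most, Pmp22 fell by less, and Cnp did not pass the test. Each window is RefSeq sequence of assembly GRCr8 running 5′ to 3′ on the gene's strand from 250 bases before the start site to 50 after it. Capitals mark matches on either strand to 4 short motifs. These were the TATA box, searched as TATAAA, the box bound by NF-Y, searched as CCAAT, the GC box, searched as GGGCGG, and the core read by SOX factors, searched as ACAAAG. The S100b window lies at chr20:12381032-12381331 on the minus strand, the Pmp22 window at chr10:48294682-48294981 on the plus strand and the Cnp window at chr10:86011254-86011553 on the plus strand.
S100b: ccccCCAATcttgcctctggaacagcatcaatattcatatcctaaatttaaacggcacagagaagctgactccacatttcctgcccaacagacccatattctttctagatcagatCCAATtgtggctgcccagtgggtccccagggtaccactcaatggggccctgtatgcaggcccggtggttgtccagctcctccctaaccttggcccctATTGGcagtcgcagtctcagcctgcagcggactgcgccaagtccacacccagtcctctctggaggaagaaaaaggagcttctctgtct
Pmp22: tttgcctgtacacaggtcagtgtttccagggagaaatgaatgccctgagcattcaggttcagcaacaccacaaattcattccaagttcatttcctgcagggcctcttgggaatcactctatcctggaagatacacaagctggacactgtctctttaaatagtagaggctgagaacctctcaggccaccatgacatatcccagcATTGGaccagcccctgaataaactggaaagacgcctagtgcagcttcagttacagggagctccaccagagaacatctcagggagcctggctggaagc
Cnp: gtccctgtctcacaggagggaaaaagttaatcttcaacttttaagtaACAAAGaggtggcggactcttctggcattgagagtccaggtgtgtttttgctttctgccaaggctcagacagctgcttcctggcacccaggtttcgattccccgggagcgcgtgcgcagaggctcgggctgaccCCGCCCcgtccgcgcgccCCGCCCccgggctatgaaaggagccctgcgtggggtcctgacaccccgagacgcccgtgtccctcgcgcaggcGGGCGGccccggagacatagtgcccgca
The S100b window held 3 CCAAT matches and the Pmp22 window 1, while the Cnp window held 3 GC box matches and 1 SOX core match. TATAAA was in none of these windows. GC content was 54.0% for S100b, 49.7% for Pmp22 and 63.3% for Cnp, with 5, 1 and 24 CpG dinucleotides, against a median GC content of 51.7% over all 33469 promoter windows of the same length. Of all those windows, 37.5% held CCAAT, 33.1% the GC box, 18.8% the SOX core and 14.2% TATAAA. The table gave 2 start sites for Mbp, whose windows had a GC content of 65.0% and 58.3% and held 3 and 1 GC box matches, with a SOX core match in the second. A match is a match of letters and says nothing about binding. The arrays do not read these windows.

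Signals are the deposited intensities on a linear scale. For log2 changes, a floor of 41.6, the 10th percentile of the whole table, replaced every lower signal. Changes are tumour minus normal on this floored scale with their standard error (SE). A call is an adjusted p under 0.05 from limma with Benjamini-Hochberg adjustment over all probe sets. Of the 4 genes, 3 were called lower in tumours (S100b, Pmp22 and Mbp) and 0 higher, where over all genes 27.5% were called lower and 31.4% higher. Of the 7 probe sets, 5 were called lower and 0 higher (limma, 0 higher at an unadjusted p under 0.05), against 25.2% and 33.0% of all probe sets. In 4 of the 7, every tumour lay below every normal gland, which was so for 2.02% of all probe sets. The median log2 change was 0.02 over all genes.

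S100b was the member that fell furthest. Its probe set, 1386903_at, had a signal of 1082 at the lowest, 4150 at the median and 5613 at the highest in the normal glands, with a mean of 3906 ± 1316 (SD, n = 11). In the tumours it ran from 37.5 through a median of 88.1 to 466, with a mean of 114 ± 90.2 (SD, n = 24). The highest tumour, X15, stayed below the lowest normal gland, X27.1N, and 2 tumours were at the floor. The log2 change was -5.27 (SE 0.28, limma adjusted p = 1.34e-17), or 38.6-fold lower. Among the 10411 genes this was fall number 5 by size.

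Pmp22, which encodes a tetraspan membrane protein of compact myelin, fell in both of its probe sets. Probe set 1370247_a_at ran from 875 through a median of 1534 to 2292 in normal glands and from 135 through 387 to 834 in tumours, with means of 1579 ± 512 (SD, n = 11) and 391 ± 180 (SD, n = 24). No tumour reached the lowest normal gland, again X27.1N. The log2 change was -2.08 (SE 0.22, limma adjusted p = 8.28e-10), or 4.23-fold lower. Probe set 1370504_a_at went from 1098 ± 336 (SD, n = 11) in normal glands to 300.4 ± 84.7 (SD, n = 24) in tumours. Its log2 change was -1.85 (SE 0.16, limma adjusted p = 7.98e-12). Here 1 tumour overlapped the normal range: X22L at 525, against 509 for X27.1N.

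Mbp, which encodes the basic protein that glues the cytoplasmic faces of myelin together, was dim in the glands and at or near the floor in the tumours. Probe set 1368810_a_at ran from 89.0 through a median of 111 to 522 in normal glands (205 ± 154, SD, n = 11). In the tumours it ran from 1.0 through 13.6 to 28.2, so that 24 of 24 tumours were at the floor and 0 of 11 normal glands were. The tumour level is therefore only a bound, and the signal of this probe set was at least 3.96-fold lower (limma adjusted p = 2.85e-11). Probe set 1387341_a_at was measured on both sides, at 126 ± 54.6 (SD, n = 11) and 43.1 ± 8.71 (SD, n = 24), with 9 tumours at the floor. It fell by 1.35 on the log2 scale (SE 0.12, limma adjusted p = 1.77e-11), and its tumours, at most 56.4, did not overlap the glands, at least 63.9. The floor bears on the size for 1368810_a_at: over all alternative settings the change ran from -2.65 to -1.27, and it stayed called.

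Cnp, which encodes a phosphodiesterase of the myelin sheath, did not pass the test in either probe set. Probe set 1387897_at ran from 521 through a median of 1040.1 to 1539 in normal glands (1107 ± 312, SD, n = 11) and from 533 through 1233 to 2142 in tumours (1288 ± 530, SD, n = 24). The ranges overlapped, although 9 tumours lay above the highest normal gland. The log2 change was 0.15 (SE 0.21, limma adjusted p = 0.579) with a 95% interval from -0.28 to 0.58. Probe set 1370693_a_at had means of 583 ± 230.0 (SD, n = 11) and 643 ± 259.9 (SD, n = 24). Its log2 change was 0.13 (SE 0.23, limma adjusted p = 0.662, interval -0.33 to 0.58). These intervals leave out falls of the size seen in S100b, Pmp22 and Mbp, and they do not show that the groups are alike.

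**Figure D1:**
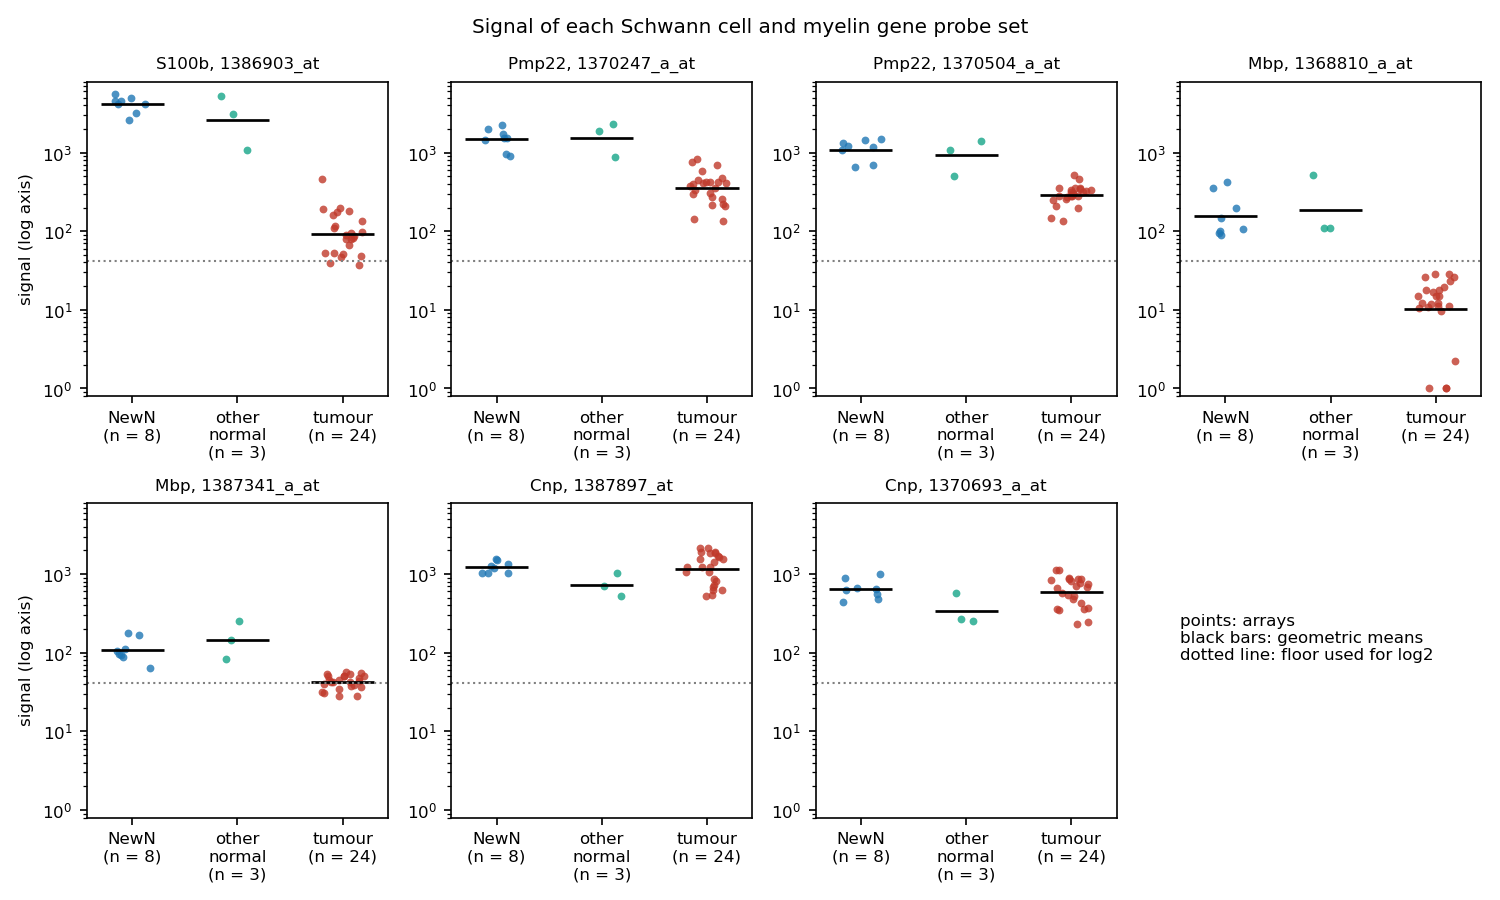
Signal of each of the 7 probe sets on a log axis, 1 point per array, for the 8 NewN glands, the 3 other normal glands and the 24 tumours; black bars are geometric means and the dotted line is the floor of 41.6. S100b, 1 Pmp22 probe set and both Mbp probe sets separate tumours from glands, while Cnp overlaps.

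The normal glands differed among themselves, and the 4 genes did not rank them alike. S100b was highest in NewN1 (5613) and X28.1N (5249), and lowest in X27.1N (1082) and NewN6 (2617). Pmp22 (1370247_a_at) was highest in Young (2292) and NewN1 (2253), and lowest in X27.1N (875) and NewN6 (892). Mbp (1368810_a_at) stood at 522 in Young, 419 in NewN1, 359 in NewN2 and 199 in NewN3, and between 89.0 and 148 in the other glands. Cnp (1387897_at) ran the other way for Young, its lowest gland at 521, and was highest in NewN4 (1539) and NewN6 (1526). NewN4, NewN6 and X27.1N also stood apart in a list of 13 lymphocyte genes, whose mean log2 level was 8.97, 9.78 and 9.11 in them and between 6.45 and 6.74 in the 8 other glands. Without these 3 glands the tumour changes were -5.57 for S100b, -2.35 and -2.14 for Pmp22, -2.25 and -1.39 for Mbp and 0.27 and 0.34 for Cnp, with the same 5 called lower. Among the tumours X22L had the lowest sum of luminal epithelial signals (1168), and without it the changes were -5.23, -2.12 and -1.89, -1.99 and -1.34, and 0.20 and 0.18.

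**Figure D2:**
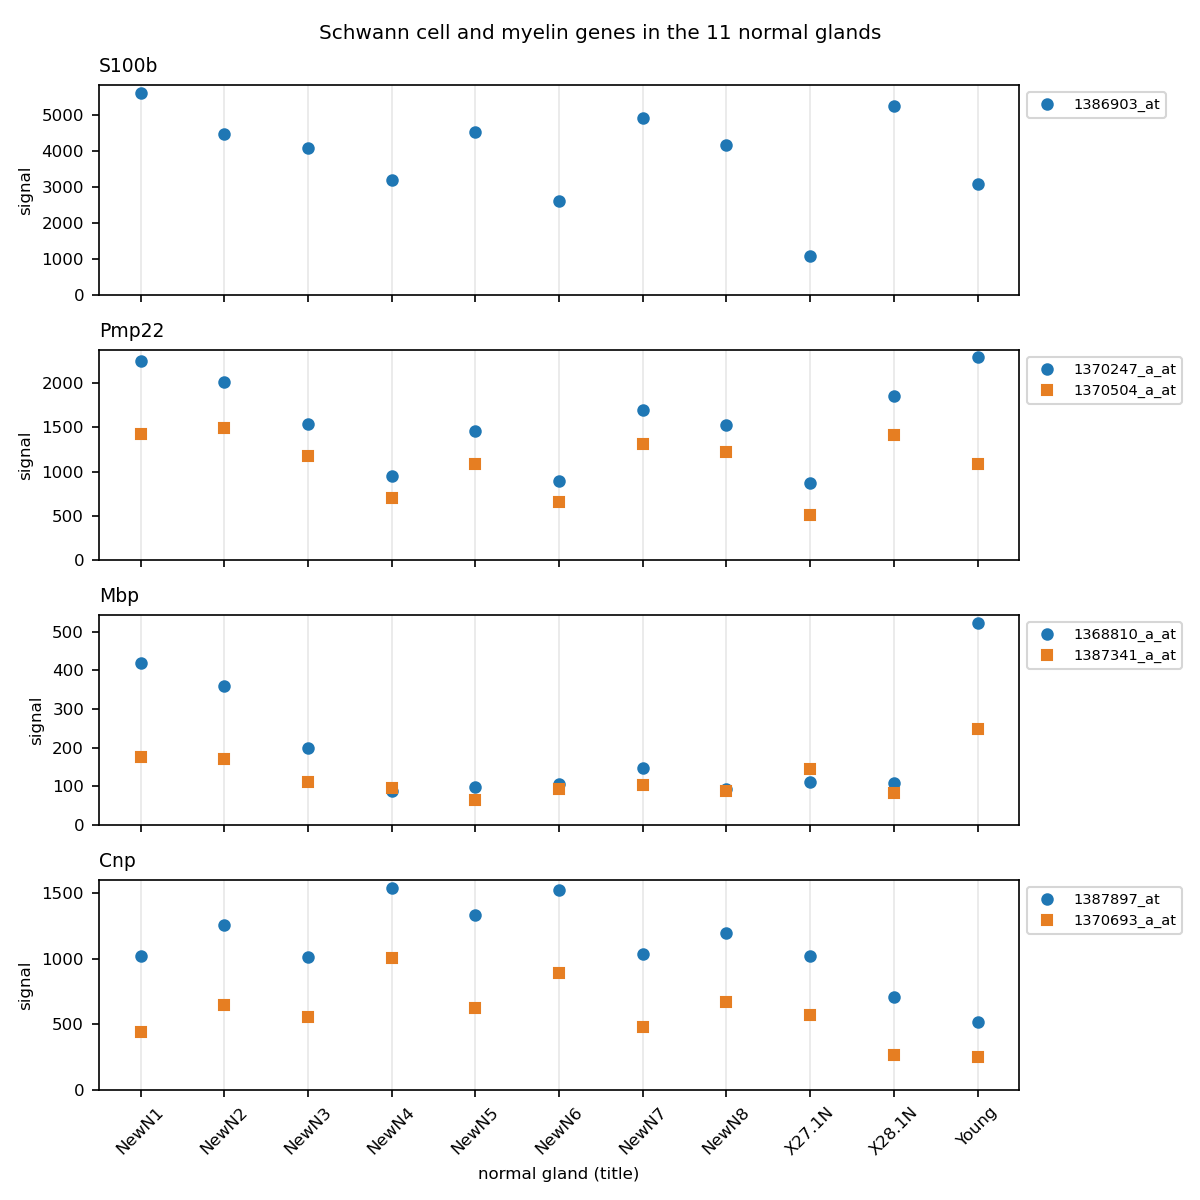
Signal (linear axis from 0) of S100b, Pmp22, Mbp and Cnp in each of the 11 normal glands, with circles and squares for the 2 probe sets where a gene has them. Young is highest for Mbp at 522 and lowest for Cnp at 521, and X27.1N is lowest for S100b at 1082.

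The titles split the normal glands into 8 NewN glands and 3 others, and the tumours were compared with each set. Against the NewN glands, S100b changed by -5.45 (limma adjusted p = 3.62e-16), Pmp22 by -2.06 and -1.92, and Mbp by -1.93 (a bound, with its tumours at the floor) and -1.23. Against the 3 others, S100b changed by -4.79 (limma adjusted p = 1.79e-09), Pmp22 by -2.13 and -1.68, and Mbp by -2.15 (again a bound) and -1.66. All 5 of these probe sets were called lower against both sets, where 26.6% of all probe sets were called lower against the NewN glands and 10.9% against the others. The comparisons share the same tumours, so they are not independent of each other.

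The estimates shifted with the glands used, for S100b from -5.45 to -4.79 and for Cnp from near 0 to a positive value that was not called. In the 3 other glands 1387897_at stood at 1023 (X27.1N), 710 (X28.1N) and 521 (Young), and in the NewN glands at 1240 ± 214 (SD, n = 8). The tumour change was -0.06 against the NewN glands (limma adjusted p = 0.852) and 0.70 against the others (SE 0.34, limma adjusted p = 0.155). For 1370693_a_at these changes were -0.13 and 0.80 (SE 0.36, limma adjusted p = 0.118). By limma, 0 of the 7 probe sets were called higher against either set (0 and 2 at an unadjusted p under 0.05), where 33.2% and 8.63% of all probe sets were. The second Cnp probe set was called against the others once X27.1N was left out, at 1.18 (limma adjusted p = 0.0469). Set directly against the 3 others, the NewN glands gave 0 calls among the 7 probe sets by limma (1 higher and 0 lower at an unadjusted p under 0.05), where 5.51% of all probe sets were called lower and 5.18% higher. The Cnp differences there were 0.76 (limma adjusted p = 0.193) and 0.92 (limma adjusted p = 0.125).

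Some titles share a number, although no label says that a shared number marks 1 animal. S100b was 1082 in X27.1N and 176 in the tumour X27, a ratio of 6.16, and 5249 in X28.1N and 52.6 in X28, a ratio of 99.8. Pmp22 (1370247_a_at) was 875 and 337 in the first pair and 1855 and 254 in the second. Cnp (1387897_at) was 1023 and 691 in the first and 710 and 632 in the second, while its other probe set was 575 and 367 in the first and, the other way round, 270.4 and 347 in the second. Mbp (1387341_a_at) was 146 and 42.3 in the first pair and 83.5 and 54.4 in the second. The gland was thus above the tumour in both pairs for S100b, Pmp22, Mbp and Cnp 1387897_at. Among tumours, X25R was above X25L for Cnp (2142 and 1221) and for S100b (193 and 85.8), while Pmp22 was nearly level in them (425 and 422).

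Other Schwann cell genes took mixed directions. Of 27 genes listed for the Schwann cell lineage and its signalling, 23 were measured: 10 rose, 4 fell and 9 were not called, with a median log2 change of 0.18 against 0.02 over all genes. Over all genes 31.4% were called higher and 27.5% lower, so calls in both directions were common outside this list too. The 4 that fell were S100b, Gas7, Gap43 and Scn7a. Gas7, a growth arrest-specific gene that shapes membrane outgrowth, went from 512 ± 131 (SD, n = 11) to 97.7 ± 61.0 (SD, n = 24), which is -2.56 on the log2 scale. Gap43, a growth cone protein also made by immature Schwann cells, changed by -1.45 with 18 tumours at the floor. Scn7a, a sodium channel of glia, changed by -0.39.

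Among the factors and receptors of this list, some rose and others were not called. Sox2, a factor of immature Schwann cells, rose by 0.50, the neuregulin co-receptor Erbb2 by 0.51 and Adgrg6, an adhesion receptor needed for myelination, by 0.54. Sox10, the transcription factor that specifies Schwann cells and is also known in mammary epithelium, had signals of 396 ± 233 (SD, n = 11) and 326 ± 173 (SD, n = 24) and a log2 change of -0.13 (SE 0.38, limma adjusted p = 0.813). The neuregulin receptor Erbb3 changed by 0.18 (limma adjusted p = 0.281) and the neurotrophin receptor Ngfr by -0.05 (limma adjusted p = 0.753). The largest rises were those of Ptprz1, a receptor phosphatase (log2 change 1.18), and Nrg1, the axonal ligand of the ERBB receptors (1.04). Egr2, the transcription factor that drives myelin genes, rose by 0.54.

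Axonal genes mostly rose. Of 19 measured axon and neuron genes, 15 rose, 0 fell and 4 were not called, with a median of 0.49. By limma, 0 of the 19 had a lower level at an unadjusted p under 0.05, and the 2 with negative estimates were Dbh (-0.51, limma adjusted p = 0.118) and Stmn2 (-0.13, limma adjusted p = 0.393). Snap25, of the synaptic fusion machinery, rose by 1.28 and Ina, a neurofilament subunit, by 1.04. Uchl1, a deubiquitinase abundant in neurons, went from 53.3 ± 7.32 (SD, n = 11) to 110.4 ± 38.0 (SD, n = 24). Most of this list was dim: 14 of the 19 lay among the 7933 dimmer probe sets by mean level, and 11 of those 14 rose. Among those 7933, 39.9% of all probe sets were called higher and 16.8% lower. The 10th percentile of signal on an array was 38.2 ± 2.66 (SD, n = 11) in glands and 43.6 ± 2.59 (SD, n = 24) in tumours, and its part in the rises of dim genes was not tested. Among the Schwann lineage genes, 9 of the 10 that rose were also that dim.

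Of 15 measured myelin proteins, 6 fell, 5 rose and 4 were not called, with a median log2 change of -0.15. Over all genes 27.5% were called lower and 31.4% higher, so a split of this kind is not particular to myelin proteins. Besides Pmp22 and Mbp, the falls were those of Gjb1, a gap junction protein of Schwann cells (-0.76), Tspan2, a tetraspanin of myelin (-0.65), Mal, a raft proteolipid (-0.65), and Plekhb1 (-0.57), all smaller than those of the 2 members. The 5 that rose were Mag, an adhesion protein of the inner sheath (0.68), Mpzl1 (0.53), Prx, a scaffold protein of the Schwann cell membrane (0.51), Mog, a protein of central myelin (0.47), and Cd9, a tetraspanin also found in epithelia (0.45). Cnp, Gpm6b (0.37), Mobp (-0.15) and Cldn11 (-0.27) made up the rest. Every tumour lay below every normal gland for 2 of the 15, Pmp22 and Mbp, both members already described above. This was so for 2.02% of all probe sets.

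Among 5 measured enzymes of myelin lipid synthesis, 2 fell and 1 rose, with a median of 0.08. Over all genes 27.5% were called lower and 31.4% higher. Aspa, which cleaves N-acetylaspartate to acetate, went from 211 ± 69.1 (SD, n = 11) to 65.0 ± 13.8 (SD, n = 24), which is -1.65 on the log2 scale, with every tumour below every gland. Elovl1, a fatty acid elongase, fell by 0.44. Fdft1, a sterol synthesis enzyme, rose by 0.37, although its called probe sets went in opposite directions.

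Within the S100 family, 5 of 12 measured genes fell, 2 rose and 5 were not called, with a median of 0.02, beside the same 27.5% and 31.4% over all genes. S100b changed by far more than the next, S100a4 (-2.27), an S100 protein of fibroblasts and motile cells, and S100a13 (-1.72). S100a1 changed by -0.70 and S100a10, the annexin A2 partner, by -0.42. S100a16 (0.30) and S100a11 (0.23) rose. S100a6 (0.04), S100a3 (0.11), S100g (0.10), S100a9 (0.08) and S100a8 (0.00) did not pass the test. S100a8 was at the floor on every array and S100g in every normal gland.

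Of 8 measured genes of the PMP22 and EMP family, Pmp22 among them, 3 fell, 1 rose and 4 were not called, with a median of -0.06, where 27.5% of all genes were called lower and 31.4% higher. Emp3 changed by -1.85 (SE 0.25) and Emp1 by -1.29 (SE 0.33). For both, 1 tumour nevertheless lay above every normal gland. Lim2, the lens member, rose by 0.38. Perp (0.49), Emp2 (0.12), Tmem47 (-0.04) and Nkg7 (-0.07) did not pass the test. A list of growth arrest-specific genes, Pmp22's other known group, with related genes and receptors, had 9 measured genes. Of these, 5 fell and 0 rose by limma (0 higher at an unadjusted p under 0.05), with a median of -0.42. Those that fell were Gas7, Pmp22, Pros1 (-1.10), Ddit3 (-0.81) and Axl (-0.42). Gas1 (-0.10), Gas6 (-0.07), Tyro3 (-0.31) and Mertk (-0.03) were not called.

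**Figure D3:**
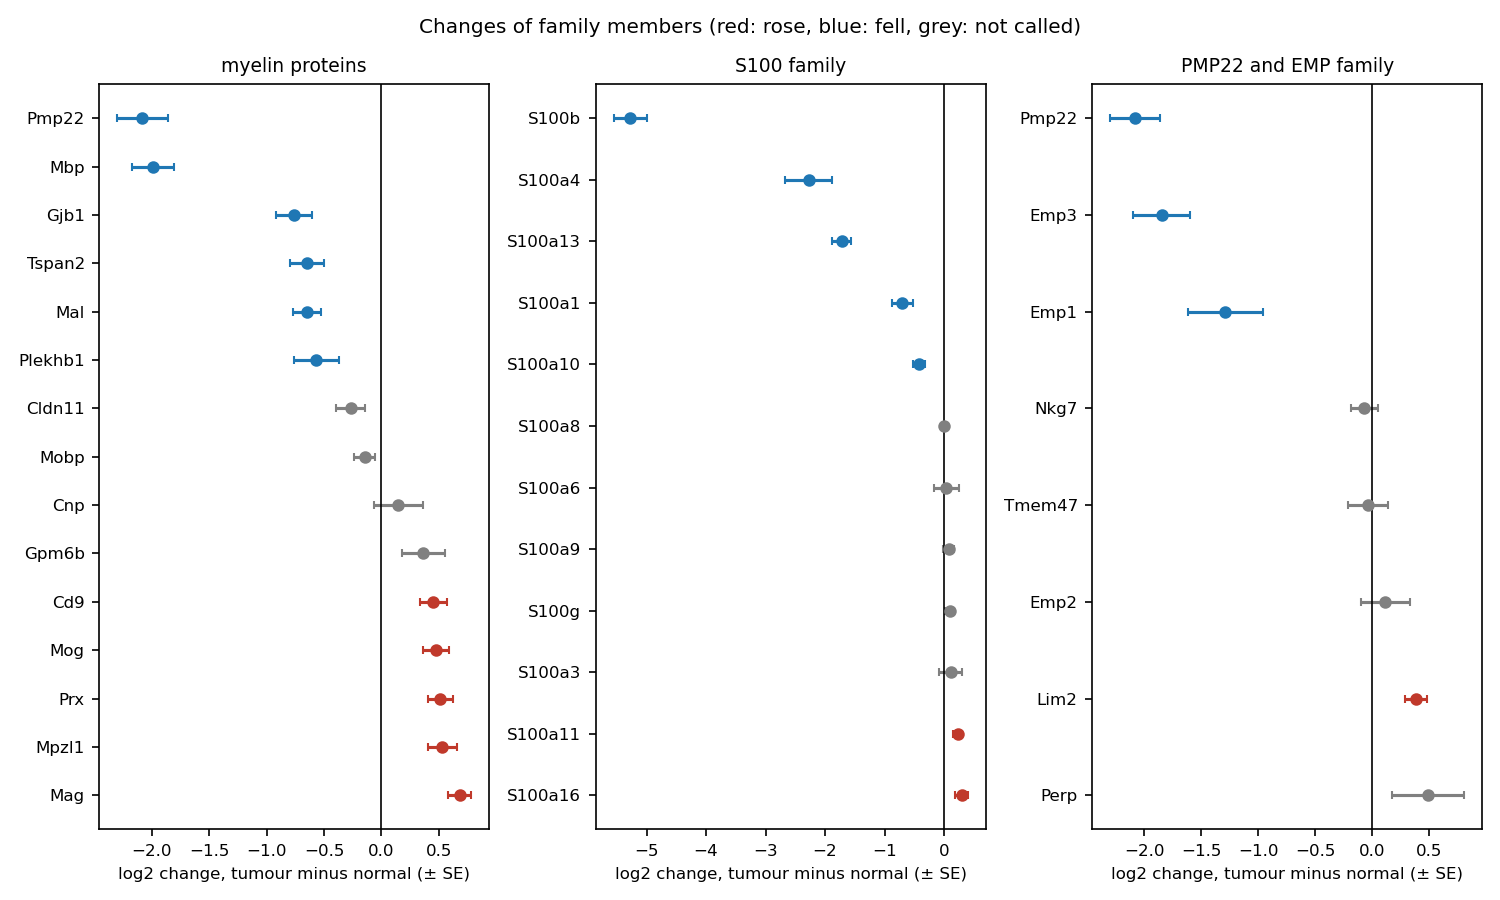
Log2 change, tumour minus normal, with its SE for each measured gene of the myelin proteins, the S100 family and the PMP22 and EMP family; red rose, blue fell, grey did not pass the limma test. S100b at -5.27 stands far from the next S100 gene at -2.27, and Pmp22 and Mbp lead the myelin proteins near -2.08 and -1.99.

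Markers of other cell types moved with the same comparison. Over all genes 27.5% were called lower, and every tumour lay below every normal gland for 2.02% of all probe sets. Of 20 adipocyte genes 19 fell, with a median log2 change of -4.03, and for those 19 every tumour lay below every normal gland. Their summed signal ran from 23157 to 62960 in glands and from 1853 to 9229 in tumours. Cfd (-6.10) and the fatty acid binder Fabp4 (-6.13) changed by more than S100b, as did Aoc3 (-5.92) and Rbp4 (-5.79). Of the defining adipocyte markers, Fabp4 was at the floor in 14 tumours and Plin1 in 20, and Adipoq is not analysed here. Of 12 fibroblast genes 10 fell, with a median of -2.29 and a summed signal of 27312 to 62760 in glands and 1222 to 53497 in tumours. The largest falls there were those of the matrix proteins Dpt (-4.51) and Mfap5 (-3.77). The part of these cell types in the member changes was not tested.

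Further lists moved in both directions, where 27.5% of all genes were called lower and 31.4% higher. Skeletal muscle genes fell in 12 of 13 (median -1.45), endothelial genes in 7 of 8 (median -0.94), basal and myoepithelial genes in 5 of 11 (median -0.60), lymphocyte genes in 7 of 13 (median -0.77) and macrophage genes in 4 of 7 (median -0.49). Without NewN4, NewN6 and X27.1N, 2 lymphocyte genes fell and 5 rose, and 2 macrophage genes fell. Luminal epithelial genes rose in 8 of 12 (median 0.90). The largest luminal rise was that of the keratin Krt7 (1.62).

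S100b was correlated with the adipocyte genes within the normal glands and within the tumours. Since the 3 lymphocyte-rich glands form a cluster of their own, the gland relations given here are those among the 8 others. There, 29 relations were tested by exact two-sided permutation of the gland labels. S100b and the mean log2 level of the 20 adipocyte genes gave r = 0.951 (exact permutation p = 0.000198, adjusted 0.00288) and rho = 0.952 (exact permutation p = 0.00114, adjusted 0.0324). Without the glands farthest from the median of the adipocyte level, Young and NewN3, r was 0.905. Within the 24 tumours the same relation, 1 of 49 tested in a family that holds the tumours and all 11 glands, gave r = 0.703 (permutation p = 0.00021, adjusted 0.00171) and rho = 0.540 (permutation p = 0.00749). Without X15 and X10, the tumours with the most adipocyte signal, r was 0.477. In the other tumours the adipocyte level ran only from 6.22 (X32) to 6.85 (X25L). Several of the adipocyte genes were at the floor in most tumours, such as Lep in 24, Rbp4 in 23 and Plin1 in 20. S100b and the axon and neuron genes gave no such relation in the tumours (r = 0.03, permutation p = 0.875, rho = 0.15, permutation p = 0.494).

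Pmp22 was correlated with the fibroblast genes in the tumours. The relation gave r = 0.753 (permutation p = 3e-05, adjusted 0.000294) and rho = 0.690 (permutation p = 0.00036), and r = 0.669 without X10 and X22L. With the adipocyte genes Pmp22 gave r = 0.582 (permutation p = 0.00124, adjusted 0.00608) and rho = 0.577 (permutation p = 0.0036), and r = 0.399 without X15 and X10. S100b and Pmp22 gave r = 0.450 with each other in tumours (permutation p = 0.0275, adjusted 0.075) and rho = 0.276 (permutation p = 0.192). Cnp passed the adjusted threshold with none of the 5 marker lists in the tumours, where r lay between -0.35 and 0.35. Within the 8 glands, Pmp22 and Mbp gave r = 0.854 (exact permutation p = 0.0132, adjusted 0.0767) and rho = 0.881 (exact permutation p = 0.00724, adjusted 0.0525), which missed the threshold. Without Young and NewN1, r was 0.622. Pmp22 and the fibroblast genes gave r = 0.574 within the 8 glands (exact permutation p = 0.118). Cnp and the luminal epithelial genes gave r = 0.920 there (exact permutation p = 0.00816, adjusted 0.0592) and rho = 0.643 (exact permutation p = 0.0962). Without Young and X28.1N, that r was 0.182. Pmp22 and the luminal genes gave r = -0.534 (exact permutation p = 0.205) and rho = -0.881 (exact permutation p = 0.00724, adjusted 0.0525). These relations also missed the threshold.

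**Figure D4:**
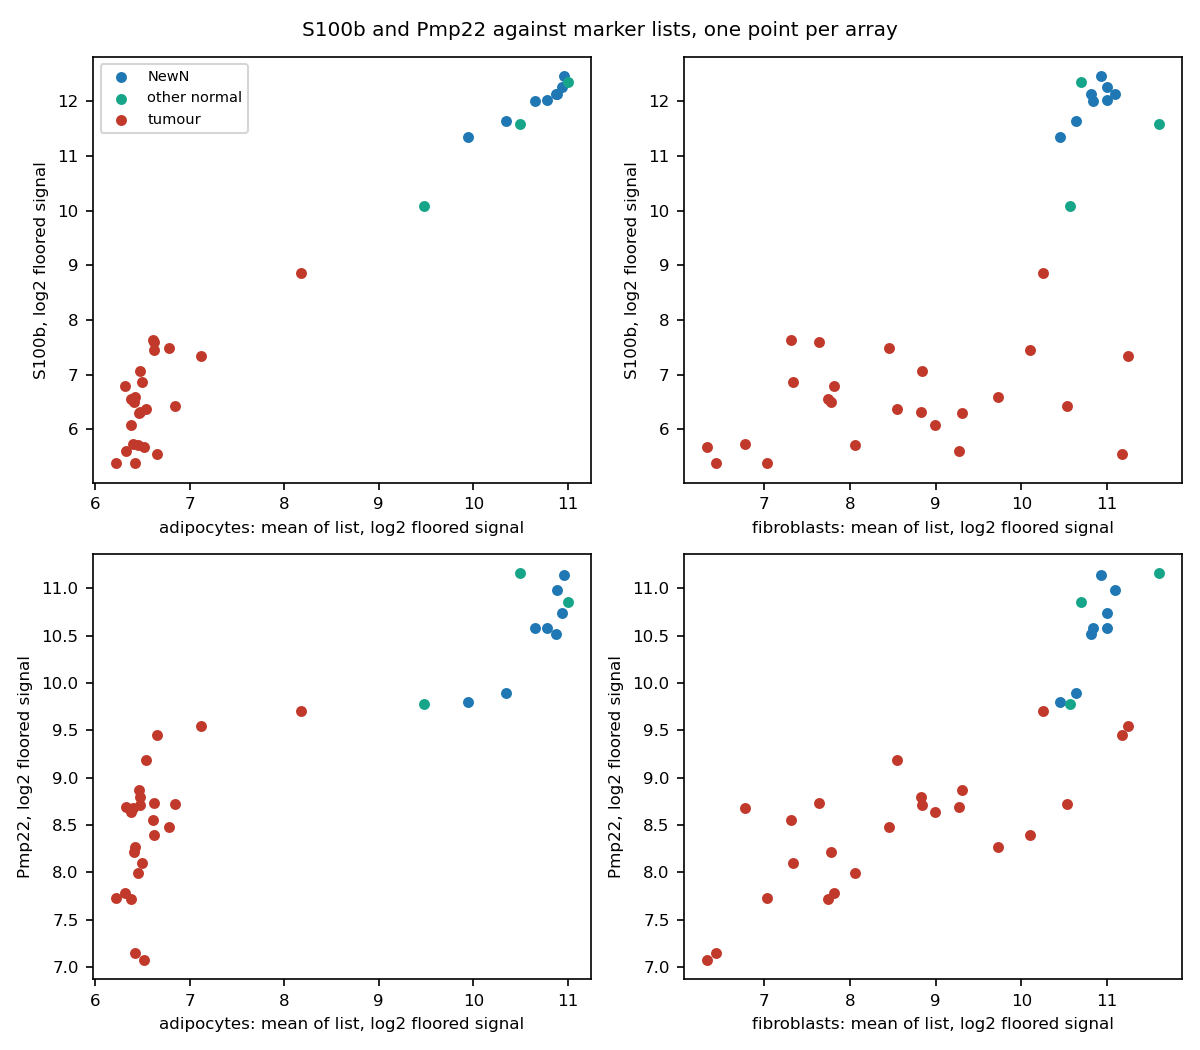
Log2 floored signal of S100b (upper panels) and Pmp22 (lower panels, 1370247_a_at) against the mean log2 level of the adipocyte list (left) and the fibroblast list (right), 1 point per array, coloured by NewN gland, other normal gland or tumour. X15 is the tumour at the adipocyte level of 8.18, and X10 is that at 7.12.

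The probe sets of a gene mostly moved together. In the tumours the Pmp22 pair gave r = 0.873 and the Cnp pair r = 0.956 across arrays. In the 8 glands the Mbp pair gave r = 0.967 and the Cnp pair r = 0.954, while the Pmp22 pair gave r = 0.381, or 0.974 without Young and NewN1. Young was the highest of the 11 glands for 1370247_a_at (2292) but not for 1370504_a_at (1087).

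As a description, each member was set against all genes measured above the floor on a share of at least 0.5 of the arrays of a group. This left 9817 genes in the tumours and 9633 in the glands. In the tumours, S100b was most like Cfd, the secreted adipsin (r = 0.71), followed by Cdo1, Vac14, Car3 and Gsn. The 2 tumours farthest from the S100b median were X15 and X4. Without them r was 0.51 for Cfd, 0.77 for Cdo1, 0.51 for Vac14, 0.32 for Car3 and 0.55 for Gsn. Pmp22 was most like Hip1, an endocytic adaptor (r = 0.88), followed by Gda, Vkorc1, Rgma and Ctss. Mbp was at the floor there and was not ranked. In the 11 glands, S100b was most like Ptp4a1, a phosphatase (r = 0.99), followed by Trarg1, Mtarc2, Sik2 and Sncg. Pmp22 was most like Medag (r = 0.98), then Sema3b, Asgr2, Tinagl1 and Ebf1. Mbp was most like Txndc12 (r = 0.95), then Fam98a, Apod, Mlip and Acvrl1, and Cnp most like Lbh (r = 0.98), then Fam98c, Eif3l, Aimp1 and Cdc5l. These gland rankings used all 11 glands, the 3 lymphocyte-rich ones included. Within the 8 glands low in lymphocyte genes, the leading r values were 0.95 for S100b with Ptp4a1, 0.98 for Pmp22 with Medag, 0.94 for Mbp with Txndc12 and 0.97 for Cnp with Lbh. Of the others named, the lowest r values there were those of Ebf1 (0.78), Tinagl1 (0.79) and Asgr2 (0.81) with Pmp22. Arrays of a group share tissue makeup, and with so few of them high values arise easily among this many genes.

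Cnp in the tumours was most like Kit, which encodes the receptor of stem cell factor and marks luminal progenitor cells of the mammary gland. Over the 24 tumours the 2 genes gave r = 0.94 and rho = 0.92 for 1387897_at, r = 0.93 for 1370693_a_at, and r = 0.92 without the 2 tumours farthest in Cnp. Kit ran from 26.5 through a median of 184 to 429 in tumours, and from 76.1 through 504 to 709 in glands. Kit averaged 195 ± 118 (SD, n = 24) in tumours and 418 ± 215 (SD, n = 11) in glands, but the glands differed by title: it was 307 to 709 in the NewN glands, while Young (76.1), X27.1N (134) and X28.1N (149) lay below the tumour mean. After Kit came Mapkapk3 (r = 0.91), Igbp1 (0.90), Sectm1b (0.89) and Klhl36 (0.87). In the tumours S100b (r = 0.22) and Pmp22 (r = 0.32) ranked far below these for Cnp.

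**Figure D5:**
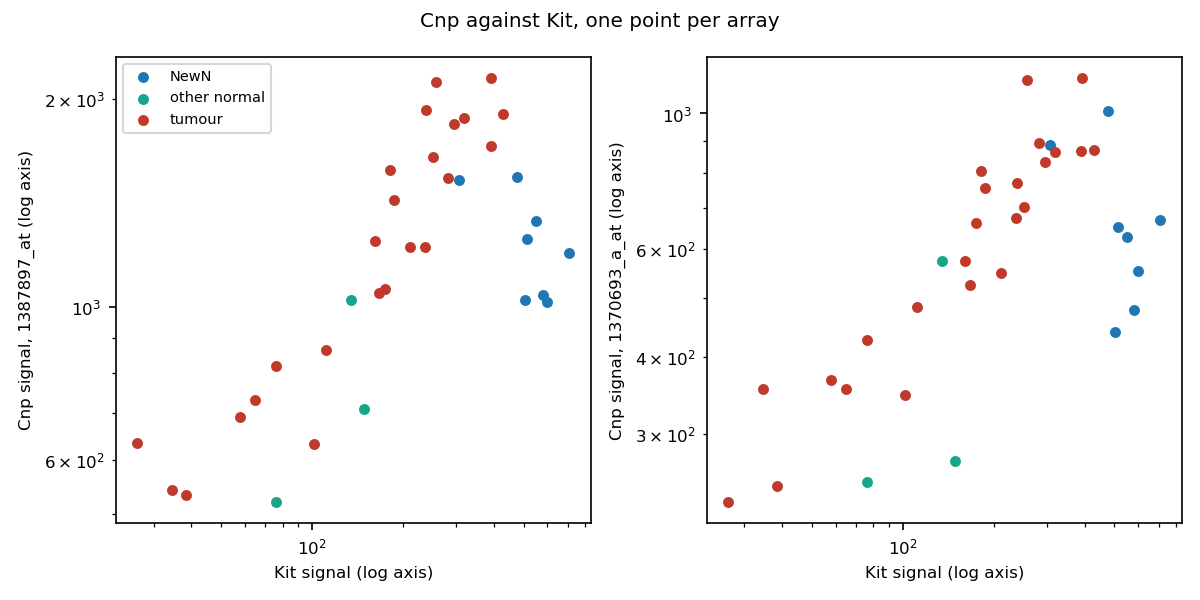
Cnp signal of each probe set against Kit signal on log axes, 1 point per array, coloured by NewN gland, other normal gland or tumour. Across the tumours, with Kit from 26.5 to 429, Cnp (1387897_at, left) goes from 533 to 2142, while NewN glands lie to the right of most tumours.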

How the data were processed

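Total RNA of 11 normal rat mammary glands and 24 tumours had been hybridised to RAE230A arrays, 1 array per sample, and grouped by source label. The deposited table holds an intensity per probe set and array on a linear scale. The sources used here do not say how the authors corrected background or scaled arrays. No deposited value is under 1, and 3601 values equal it. Array medians ran from 158 to 176 and were not rescaled. Control probe sets (57) were dropped. Values below a floor of 41.6 were raised to it and log2 was taken, with no filter on level.

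Probe sets with 1 symbol (12783) were named from GEO's platform annotation. Those with several symbols (312) or none (2771) were not, and 12748 identifiers matched RefSeq. For gene counts the probe set with the highest mean stood for the gene. The comparisons used limma 3.58.1 under R 4.3.3, fitted with lmFit to all arrays without a covariate, then eBayes with trend and robust on. The procedure was tested on simulated data. Correlations used 100000 permutations, or all orders for the 8 glands.

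Named genes were all members, all measured genes of the myelin protein, S100 and PMP22 lists, the largest called changes and highest levels of other lists, and the 5 genes most like each member. Aoc3, Rbp4, Uchl1, Erbb2, Erbb3, Ngfr, Sox2, Adgrg6, Gap43, Scn7a, Pros1, Ddit3, Axl, Dbh and Stmn2 were chosen after their values were seen. So were Gas1, Gas6, Tyro3 and Mertk. The members and lists were chosen with earlier results of these data known.

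Alternatives covered the floor, the scaling, a filter on dim probe sets, array weights, the eBayes model, samples left out and a block on title numbers. The restriction of gland correlations to 8 glands, not applied to the ranking of most alike genes, was chosen after seeing the data. The number of arrays limits the precision. Adipoq and other listed genes without a named probe set are not analysed here.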

Additional observations from a re-analysis of the deposited data

How the results depend on the processing

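In the comparison of tumours with all normal glands, the 7 member probe sets kept their side of the threshold under every alternative that gave a value. S100b ranged from -5.57 to -5.03, Pmp22 from -2.35 to -1.86 and from -2.14 to -1.62, Mbp from -2.65 to -1.27 and from -1.46 to -0.78, and Cnp from 0.04 to 0.44 and from 0.02 to 0.35. With title number as replicate block (block correlation 0.324) no member call changed. Against the 3 other glands, Cnp was called with array weights (0.93, adjusted p = 0.0387, and 1.03, adjusted p = 0.0262) and 1370693_a_at also without NewN4, NewN6 and X27.1N (1.18, adjusted p = 0.0448). Between NewN and other glands, Mbp 1387341_a_at was called without X28.1N (-0.83, adjusted p = 0.0213). Mbp is not among the 7933 brighter probe sets and has no value there.

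Counts over all probe sets moved more. With only the 7933 brighter probe sets tested, 2077 were higher in tumours than in all glands (5239 otherwise), 2010 higher than in NewN glands (5267), and 1135 lower (1723) and 855 higher (1370) than in the others. Leaving out 1 other gland gave 1017 to 1726 lower and 587 to 1136 higher. Between NewN and other glands (875 lower, 822 higher), quantile normalization gave 444 and 540, the lymphocyte-rich glands left out gave 378 and 390, the brighter ones 397 lower, array weights 1333 higher, and leaving out 1 gland 414 to 529 lower and 410 to 519 higher. The cause was not tested.

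The correlations of S100b with Pmp22, S100b with lymphocyte genes and Pmp22 with adipocyte genes were 0.706, -0.73 and 0.796 over all 11 glands. Within the 8 glands they did not pass the threshold, at -0.0654, 0.339 and -0.0885 (exact permutation p = 0.891, 0.397 and 0.84). Among the list counts, the brighter probe sets left 1 called rise and 1 called fall in the Schwann lineage, 4 rises among axon genes and 3 falls among myelin proteins. The floor bounds every level below a signal of 41.6.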
